A study of Mus musculus with 18 samples.

Results

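Retinas detached by an injection of INS37217 in saline were compared between 7 d and 24 h after the injection. The comparison takes 3 arrays at 7 d and 3 arrays at 24 h, which are 6 of the 18 arrays of the study, chosen by the treatment and time in their titles, and it was made across 22626 probe sets that stand for 12393 named genes. All mice were of the albino strain Balb/cJ, and the labels give neither their age nor a genotype beyond the strain. Both groups received 1 uL of 10 uM INS37217 in saline under the retina, so the injection and the detachment are shared and only the time differs. The matching saline groups, 3 arrays at 24 h and 3 at 7 d, received 1 uL of saline alone and serve here only to ask whether a change differed between the injections. Per the series' design text, retinas at 24 h lay flat again but were coarsely misfolded, while at 7 d the folds had gone and function was still incomplete. The RNA on an array came from more than 5 pooled retinas, the 3 arrays of a group are described there as biological replicates, and no array of an eye without an injection was used here. The source names of the 6 arrays speak of saline only, and the titles were followed.

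INS37217, known as denufosol, is a stable compound that activates P2Y2, a receptor for extracellular nucleotides on the pigment epithelium, whose stimulation moves ions and water out of the subretinal space. A retina lifted off the pigment epithelium loses its source of oxygen, retinoid and nutrients. Photoreceptors then shorten their outer segments, Mueller glia leave their supporting state and turn on stress and cytokine-response genes, and microglia and blood-borne phagocytes enter the outer retina. After reattachment these responses recede over days, while scar tissue may form.

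Values are RMA levels on the log2 scale, so a difference of 1 is a doubling. A gene was called changed where limma with the replicate number as a block gave a Benjamini-Hochberg adjusted p under 0.05 over all probe sets. In all, 1733 of 22626 probe sets passed (7.66%), 812 higher and 921 lower at 7 d. Without the block 501 passed, 213 higher and 288 lower, and all 501 also passed with it. By gene, 506 of 12393 rose (4.08%) and 552 fell (4.45%), 8.54% in all, with a median change of 0 over all genes. Changes of more than 2-fold were found for 42 genes that rose and 96 that fell. Without the block, 1.08% of genes rose and 1.46% fell. Where a call named below was lost without the block, the adjusted p without it is given. Replicate 1 stood apart in both groups: its levels correlated with those of the other replicates at 0.959 to 0.976, against 0.996 between replicates 2 and 3. With replicates 2 and 3 only, 1575 probe sets passed, of which 1273 were among the 1733. The 3' to 5' difference of the actin control probes, a sign of RNA quality, was 0.61 to 0.65 at 24 h and 0.46 to 0.70 at 7 d. The tissue carried the defining genes of retina, with the rod arrestin Sag at 13.69 to 14.02 on the 6 arrays. It also carried RNA of lens marker genes, since the mean of 16 of them was 10.8 to 10.9 at 24 h and 11.1 to 11.2 at 7 d. The tissue that this RNA came from was not tested.

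The largest loss between 24 h and 7 d was that of genes induced by interferon. Of 30 measured genes of this list 23 fell, none rose, and the median change was -1.52. Slfn4, a Schlafen gene of activated myeloid cells, read 7.65, 7.95 and 7.85 on the 24 h arrays and 4.53, 3.65 and 3.85 on the 7 d arrays. It thus fell by 3.81 ± 0.15 (SE, adjusted p = 6.4e-13). The groups did not overlap, which the rule for naming the genes of largest change required. Oasl2, an antiviral gene of the 2'-5'-oligoadenylate synthetase family, read 8.49, 8.31 and 8.05 at 24 h and 5.52, 5.73 and 5.69 at 7 d, and fell by 2.64 ± 0.11 (SE, adjusted p = 1.3e-12). At 7 d Slfn4 lay below and Oasl2 above the 4.97 to 5.17 that 15 genes of skeletal muscle averaged on these arrays, a rough guide to background, so the difference of Slfn4 is given as measured and not as a fold.

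The fall included the machinery that carries the interferon signal as well as its products. Stat2 and Irf9 encode transcription factors that act downstream of the type I interferon receptor. Irf9 read 8.95, 9.93 and 10.04 at 24 h and 7.23, 6.93 and 6.96 at 7 d, so that it fell by 2.60 ± 0.20 (SE, adjusted p = 6.9e-09). Stat2 fell by 2.19 ± 0.12 (SE, adjusted p = 8.3e-11), from a mean of 8.67 to 6.48. Irf7, which amplifies the response, fell by 2.39, and Usp18, which brakes signalling at the receptor, fell by 2.68. The receptor subunits Ifnar1 and Ifnar2 each differed by -0.14 and did not pass.

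Among the effectors, the immunity-related GTPase Igtp fell by 2.57, from 9.46, 9.88 and 9.99 at 24 h to 7.21, 7.30 and 7.10 at 7 d. Its relative Irgm1 fell by 2.42, and Irgm2, which was outside the list, fell by 2.25. Ifit1, which binds foreign RNA caps, fell by 1.97, from 8.42, 8.69 and 8.86 to 6.62, 6.71 and 6.72. Rsad2, the antiviral enzyme viperin, read 8.0, 8.30 and 8.51 at 24 h and 6.93, 6.55 and 6.44 at 7 d, and fell by 1.63 ± 0.13 (SE, adjusted p = 1.2e-08). In none of these genes did an array of one time reach the range of the other. The 7 members that did not pass differed by -0.40 to -0.11, among them Mx1 at -0.16, a gene that carries a large deletion in most inbred mouse strains.

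Of the 3 times the list was highest at 24 h. The mean of the 30 genes was 6.28 in the INS37217 group at 2 h, 7.93 at 24 h and 6.50 at 7 d, while in saline retinas it was 7.23 at 24 h and 6.41 at 7 d. On single arrays the list mean was 7.78 to 8.01 at 24 h and 6.46 to 6.53 at 7 d.

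The 250 bases before the start of each gene, from RefSeq's annotation of GRCm38.p6, were searched on both strands for GAAA, any 2 bases and GAAA again, the core of the element that interferon regulatory factors bind. It was present in 10 of the 23 members with a promoter in the table, all of them among the 19 that fell, and in 331 of 9887 measured genes (3.35%). The pieces below show 4 of these promoters, chosen to show both orientations and single, paired and overlapping matches in genes that fell. They are written 5′ to 3′ on the gene's strand, capitals mark the matches, and a pair of TTTC, 2 bases apart, is the same element read on the other strand. In Irgm1 the matches overlap. The match is a description of the letters and was not tested as a site.
Ifit1, chr19:34640760-34640838, plus strand: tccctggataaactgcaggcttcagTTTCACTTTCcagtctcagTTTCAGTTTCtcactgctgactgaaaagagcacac
Rsad2, chr12:26456538-26456597, minus strand: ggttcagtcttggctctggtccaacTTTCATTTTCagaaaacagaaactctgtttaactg
Igtp, chr11:58199497-58199555, plus strand: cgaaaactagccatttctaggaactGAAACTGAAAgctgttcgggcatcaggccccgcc
Irgm1, chr11:48871421-48871475, minus strand: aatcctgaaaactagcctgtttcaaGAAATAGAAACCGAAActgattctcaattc

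Antigen presentation split by class. Of 16 measured genes 7 fell and 3 rose, with a median change of -0.30. Those that fell serve the class I pathway, which loads peptides made inside the cell. Tap1, a subunit of the peptide transporter, read 9.10, 8.90 and 9.21 at 24 h and 6.73, 6.28 and 6.48 at 7 d, and fell by 2.57 ± 0.15 (SE, adjusted p = 1.2e-10), although only 1 of its 4 probe sets passed. The immunoproteasome subunits Psmb9, Psmb8 and Psmb10 fell by 1.72, 1.03 and 1.03, the loading factor Tapbp by 1.14, and the class I heavy chain H2-D1 by 1.14. H2-D1 and its near-identical relatives may share probes, and 5 of its 9 probe sets passed. The 3 genes that rose belong to class II, which presents captured material on professional phagocytes. H2-Aa read 6.51, 6.15 and 6.28 at 24 h and 7.26, 7.31 and 7.20 at 7 d, and rose by 0.94 ± 0.11 (SE, adjusted p = 5.1e-06). The invariant chain Cd74 rose by 0.61 and H2-Eb1 by 0.41 (adjusted p without the block 0.2).

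**Figure D1:**
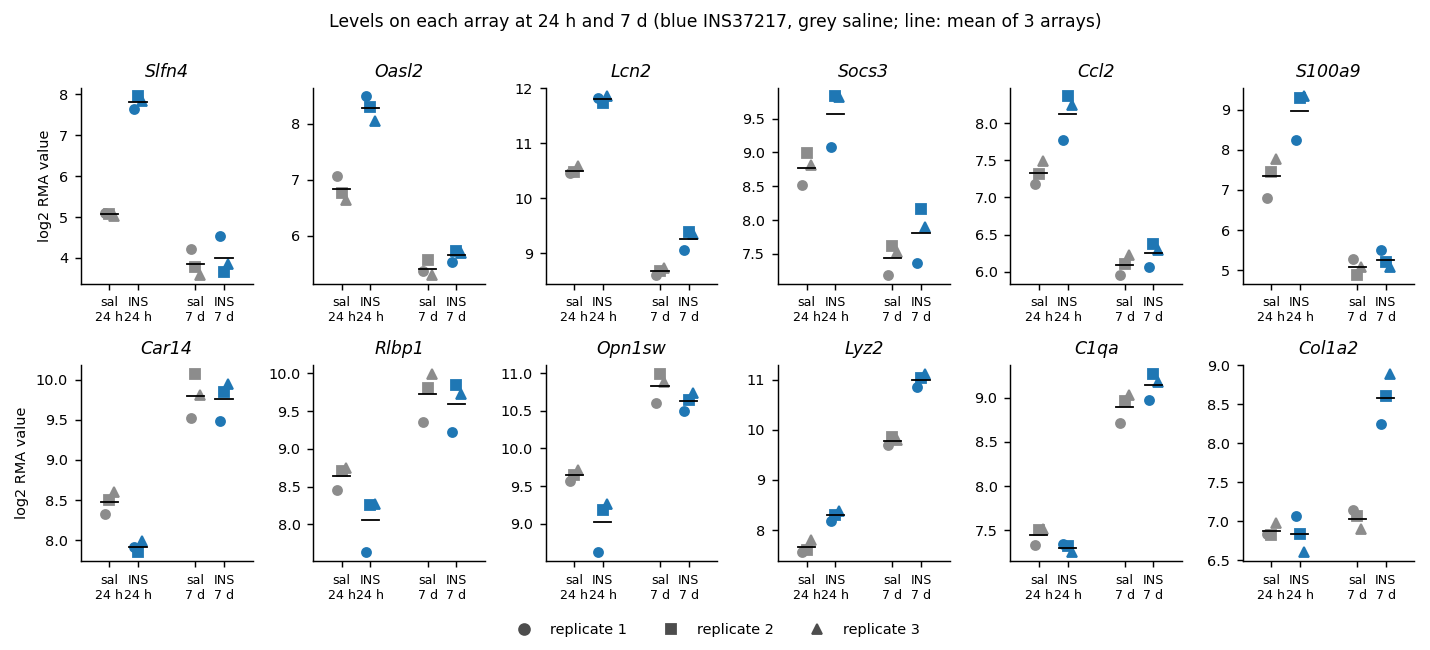
Levels of 12 genes on each array at 24 h and 7 d, in log2 RMA values. Blue marks INS37217 and grey saline, the symbol shape gives the replicate, and each line is the mean of 3 arrays. In the INS37217 groups the 6 genes of the upper row are lower and the 6 of the lower row higher at 7 d on every array. Genes of largest change were named only where this held.

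Complement genes split in the same comparison. Of 14 measured genes 5 rose and 3 fell, and the median change was 0. C1qa and C1qc, subunits of the recognition protein C1q that microglia and macrophages make, rose by 1.84 and 1.87. C1qa read 7.34, 7.32 and 7.25 at 24 h and 8.97, 9.27 and 9.18 at 7 d, with the SE of the change at 0.13 (adjusted p = 2.2e-09). C1qb rose by 0.79 and the receptor C3ar1 by 1.04 (adjusted p without the block 0.28). In contrast Cfb, the protease of the alternative pathway, read 7.37, 7.92 and 7.64 at 24 h and 6.45, 5.75 and 6.06 at 7 d, and fell by 1.56 ± 0.15 (SE, adjusted p = 2.8e-07). The classical-pathway proteases C1ra and C1s1 fell by 0.91 and 0.80, so that the subunits of the C1 complex moved in opposite directions.

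Reactive glia genes fell next most by their median. Of 21 measured genes 16 fell, none rose, and the median was -0.69. Without the block 10 passed. Lcn2, the iron-siderophore carrier lipocalin 2 that stressed glia secrete, read 11.82, 11.73 and 11.85 at 24 h and 9.06, 9.38 and 9.35 at 7 d. It fell by 2.54 ± 0.11 (SE, adjusted p = 1.2e-12), or 5.80-fold, and remained above its mean of 8.31 at 2 h. The transcription factor Cebpd fell by 1.90, and the metalloreductase Steap4 by 1.65. Timp1, an inhibitor of matrix metalloproteinases, fell by 1.11, and the intermediate filament gene Vim by 0.68. Gfap, the filament gene most used to mark gliosis, differed from this pattern. It read 9.02, 8.43 and 8.37 at 24 h and 9.04, 8.24 and 7.97 at 7 d, a difference of -0.19 ± 0.11 (SE, adjusted p = 0.37) with overlapping groups. Replicate 1 was the highest array of both groups. Serpina3n, a protease inhibitor of reactive astrocytes, fell by 0.57 (adjusted p without the block 0.091), from 11.14, 11.13 and 11.01 to 10.55, 10.53 and 10.48.

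The transcripts of gp130 signalling, which runs through the receptor shared by the interleukin 6 family, fell in part. Of 15 measured genes 7 fell, none rose, and the median was -0.30. Without the block 3 passed. Socs3, the feedback inhibitor that STAT3 induces, read 9.08, 9.83 and 9.82 at 24 h and 7.37, 8.17 and 7.89 at 7 d, and fell by 1.77 ± 0.10 (SE, adjusted p = 8.4e-11). Every replicate fell, and the groups did not overlap. Stat3 itself fell by 0.85 and Bcl3, an atypical I-kappa-B protein, by 0.68. The receptor subunits Il6st and Osmr fell by 0.76 and 0.74 (adjusted p without the block 0.17 and 0.4). The ligand Il6 was at 3.60 to 3.84 on the 24 h arrays and 3.63 to 3.76 on the 7 d arrays, after a mean of 7.67 at 2 h. Osmr, Stat3, Socs3 and Bcl3 are in both this list and that of reactive glia. The STAT element TTCCNGGAA, which reads the same on both strands, was in the 250 bases before the start of 1 of 19 reactive glia genes with a promoter, Steap4, and of 0 of 14 gp130 genes, against 1.07% of measured genes.

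**Figure D2:**
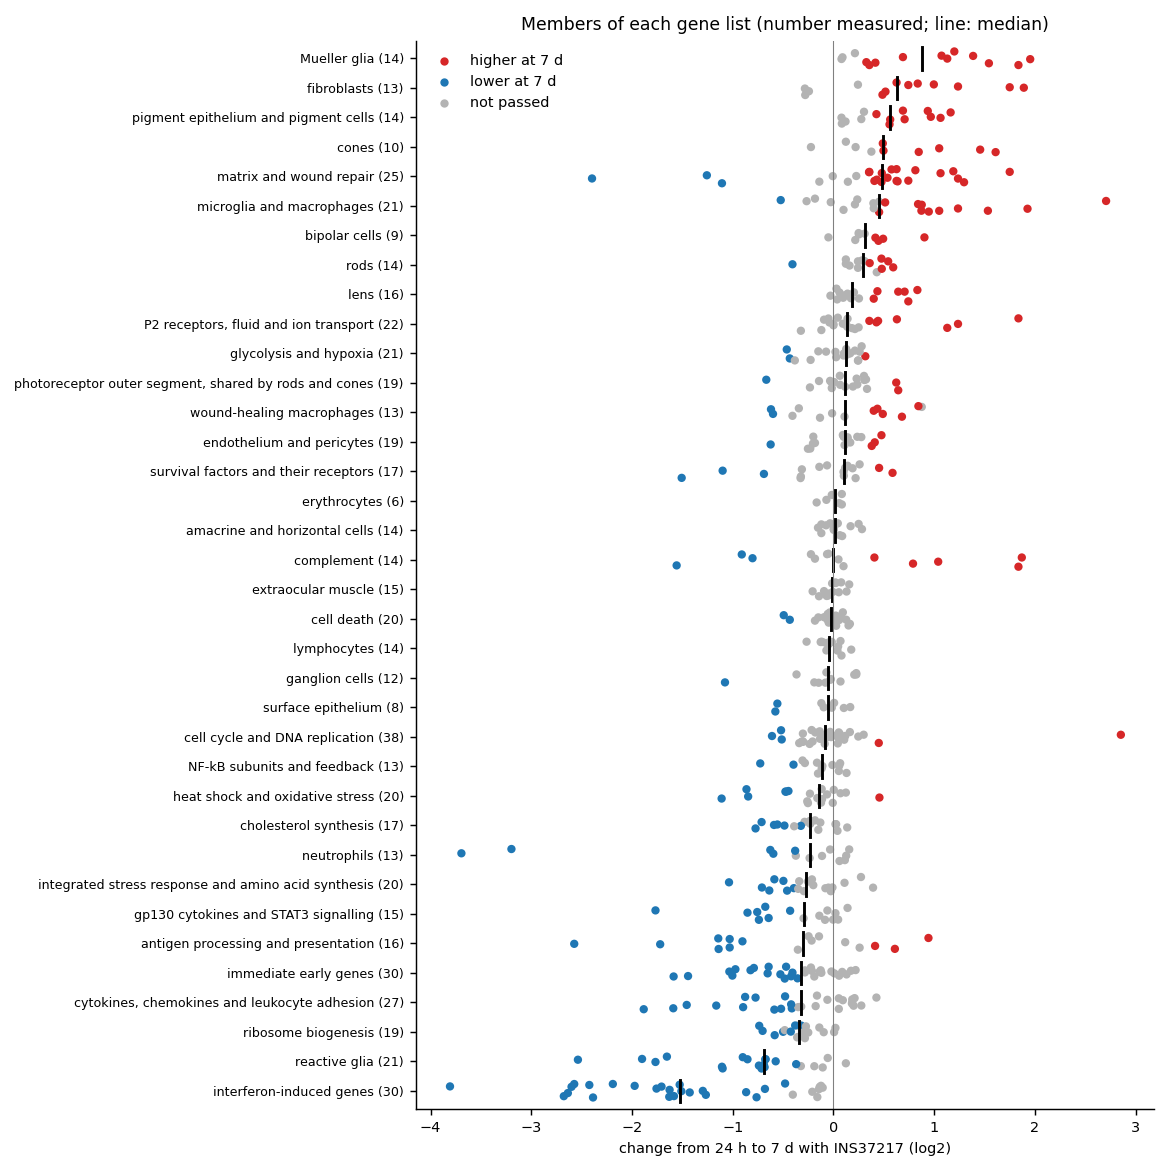
Change from 24 h to 7 d with INS37217, in log2, for each measured member of 36 gene lists, ordered by their median, which the black line marks. Red points rose, blue points fell and grey points did not pass, and the numbers in brackets are the members measured. Interferon-induced genes have the lowest median at -1.52 and Mueller glia genes the highest at 0.88.

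Several chemokine genes fell, some from a peak at 2 h and others from one at 24 h. Of 27 measured genes for cytokines, chemokines and leukocyte adhesion 12 fell, none rose, and the median was -0.32. Without the block 5 passed. Ccl2, which recruits monocytes, read 7.78, 8.36 and 8.25 at 24 h and 6.07, 6.38 and 6.29 at 7 d, and fell by 1.88 ± 0.12 (SE, adjusted p = 3.3e-10). Its mean at 2 h had been 9.45. Cxcl1, which recruits neutrophils, fell by 1.46 to a mean of 4.66, below the guide to background given above, after 9.15 at 2 h. The monocyte chemokine Ccl12 fell by 1.59, and its mean was 4.65 at 2 h, 6.88 at 24 h and 5.29 at 7 d. Ccl5, which interferon induces, fell by 0.90 (adjusted p without the block 0.057), with means of 5.94, 6.55 and 5.66 at the 3 times. Il1b, which encodes interleukin 1 beta, fell by 0.88. Tnf differed by 0.05 and Cxcl10 by -0.32, and neither passed (adjusted p = 0.87 and 0.052).

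Immediate early genes, which cells transcribe within minutes of a stimulus, fell in part. Of 30 measured genes 15 fell, none rose, and the median was -0.32. Without the block 7 passed. Junb, a subunit of the AP-1 transcription factor, read 8.91, 8.69 and 8.85 at 24 h and 7.10, 7.23 and 7.36 at 7 d, and fell by 1.59 ± 0.12 (SE, adjusted p = 4.9e-09). The stress factor Atf3 was at 9.15, 9.15 and 9.12 and then at 7.66, 7.66 and 7.77, and fell by 1.44 ± 0.09 (SE, adjusted p = 6.1e-10). Jun fell by 0.97, and the growth arrest genes Gadd45b and Gadd45g by 1.03 and 1.00 (Gadd45g adjusted p without the block 0.28). The cyclic AMP response element TGACGTCA, the same on both strands, was in the 250 bases before the start of 3 of 24 members with a promoter and of 0 of the 11 that fell, against 2.53% of measured genes.

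Other stress programmes declined in part. In the integrated stress response, which raises amino acid synthesis when translation is held back, 7 of 20 genes fell and none rose, with a median of -0.27 (5 without the block). Cebpb, a partner of its main factor, fell by 1.04 and that factor, Atf4, by 0.64, from 11.22, 11.25 and 11.31 to 10.60, 10.57 and 10.70. The proline synthesis enzyme Aldh18a1 fell by 0.71. In heat shock and oxidative stress, 6 of 20 genes fell and 1 rose, with a median of -0.14 (2 and 1 without the block). The metal-binding metallothioneins led the fall: Mt2 read 11.10, 10.96 and 10.92 and then 9.87, 9.82 and 9.96, and fell by 1.11 ± 0.10 (SE, adjusted p = 1.8e-07), and Mt1 fell by 0.86. The gene that rose was Nqo1, a quinone reductase, by 0.46. Cryab, the small heat shock protein that is also a lens crystallin, differed by -0.01 ± 0.09 (SE, adjusted p = 0.99).

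The median change of 17 genes for survival factors and their receptors was 0.10. Of these 3 fell and 2 rose, against 4.45% and 4.08% of all genes. The 2 that remained without the block were Ednrb and Edn2, a receptor and its ligand that injured photoreceptors and glia use. Ednrb read 7.59, 7.92 and 8.18 at 24 h and 6.40, 6.27 and 6.50 at 7 d, and fell by 1.51 ± 0.17 (SE, adjusted p = 3.4e-06). Edn2, the endothelin that damaged photoreceptors release, fell by 0.69 to a mean of 9.15, which was still above its 7.08 at 2 h. Fgf2, a photoprotective growth factor, fell by 1.10 ± 0.23 (SE, adjusted p = 0.0037, without the block 0.22), from 5.73, 6.86 and 6.90 to 5.06, 5.70 and 5.43. Igf1, a growth factor that microglia also make, rose by 0.59 (adjusted p without the block 0.29, and 0.051 without the 24 h replicate 3 and 0.069 without the 7 d replicate 3).

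Most supporting genes of Mueller glia rose. Of 14 measured genes 11 rose, none fell, and the median of 0.88 was the highest of the 36 lists. Without the block 7 passed. Car14, a membrane carbonic anhydrase that handles the retina's carbon dioxide, read 7.91, 7.85 and 7.99 at 24 h and 9.48, 9.84 and 9.94 at 7 d. It rose by 1.84 ± 0.11 (SE, adjusted p = 3.6e-10), or 3.57-fold, and its mean at 2 h had been 9.46. Rlbp1, the retinaldehyde-binding protein of the visual cycle, rose by 1.54 ± 0.10 (SE, adjusted p = 6.1e-10), from 7.63, 8.26 and 8.27 to 9.22, 9.85 and 9.72. Glul, the glutamine synthetase that clears glutamate, read 10.49, 10.38 and 10.19 and then 11.55, 11.46 and 11.27, a rise of 1.07 that brought its mean of 11.43 to that at 2 h.

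Several further genes of the list rose on every array. The lipid carrier Apoe, which macrophages also express, rose by 1.95, from 10.04, 10.28 and 10.45 to 12.07, 12.22 and 12.34. The transporter Abca8a rose by 1.20 and the receptor Gpr37 by 1.39. The water channel Aqp4 rose by 1.13 ± 0.12 (SE, adjusted p = 1.2e-06, without the block 0.11), and its partner, the potassium channel Kcnj10, by 0.36 (adjusted p without the block 0.22). Sox9 and Slc1a3, which Mueller glia hold as identity and glutamate transport genes, differed by 0.08 and 0.09 and did not pass. In pooled retinas, more cells of a type and more RNA per cell cannot be told apart, here and for every list of cell type markers below. The cell type that each transcript came from was not tested either, and 9 of 14 genes of pigment epithelium and pigment cells also rose.

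Fluid and ion transport genes rose in part. Of 22 measured genes including the P2 receptors 7 rose and none fell, with a median of 0.14. With saline the median was 0.16, and the difference between the injections did not pass for any of the 22. Without the block 3 passed. P2ry2, the receptor of INS37217, was low, at 5.38, 5.47 and 5.57 and then 5.38, 5.20 and 5.48, a difference of -0.12 ± 0.10 (SE, adjusted p = 0.6) with overlapping groups. P2ry12, the nucleotide receptor that resting microglia carry, rose by 1.24, from 4.77, 4.34 and 4.18 to 5.69, 5.40 and 5.91. Its values at 24 h lay below the guide to background given above. The water channel Aqp1 rose by 0.44 and the lactate transporter Slc16a1 by 0.63 (adjusted p of the latter without the block 0.53). Aqp4, Car14 and Kcnj10 are members of this list too.

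Several cone genes rose. Of 10 measured genes 6 rose, none fell, and the median was 0.49. Without the block 4 passed. Opn1sw, the short-wavelength cone opsin, read 8.62, 9.18 and 9.26 at 24 h and 10.50, 10.65 and 10.74 at 7 d, a rise of 1.61 ± 0.11 (SE, adjusted p = 1.5e-09). Its mean of 10.63 at 7 d was below the 11.21 of the 2 h arrays. Opn1mw, the other cone opsin, rose by 1.05, the potassium channel subunit Kcne2 by 1.46 and cone transducin Gnat2 by 0.85. Gnb3, the beta subunit of that transducin, differed by -0.22 and did not pass.

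Rod genes moved less. Of 14 measured genes 5 rose and 1 fell, with a median of 0.30. Without the block 2 rose and none fell. These were Pde6g, the inhibitory subunit of the rod phosphodiesterase, and Cngb1, a subunit of the cyclic nucleotide channel. Pde6g read 12.21, 12.08 and 12.24 at 24 h and 12.73, 12.56 and 12.67 at 7 d, and rose by 0.48. Cngb1 rose by 0.48 as well, from a mean of 9.59 to 10.07 after 10.53 at 2 h. Rod transducin Gnat1 and arrestin Sag differed by 0.16 and 0.12 and did not pass.

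Among 19 outer segment genes shared by rods and cones 2 rose and 1 fell, against 4.08% and 4.45% of all genes. Rdh12, a retinol dehydrogenase, rose by 0.62, and Guca1a, a guanylate cyclase activator, by 0.64 (adjusted p without the block 0.06). Prph2, the structural protein of the disc rim, went the other way. It read 8.04, 7.94 and 8.14 at 24 h and 7.19, 7.46 and 7.47 at 7 d, and fell by 0.67 ± 0.14 (SE, adjusted p = 0.0026), and its mean at 2 h had been 10.49. A single probe set stands for Prph2 here.

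Among inner retinal neurons, the bipolar list held the most genes that changed. In bipolar cells 4 of 9 genes rose and none fell, with a median of 0.31, but none passed without the block and 2 without the 24 h replicate 1. Trpm1, the channel that depolarises ON bipolar cells, rose by 0.90 (adjusted p without the block 0.13), from 7.25, 6.68 and 6.87 to 8.24, 7.62 and 7.65. None of 14 amacrine and horizontal cell genes passed by limma, with or without the block, and 1 had an unadjusted p under 0.05. The median was 0.01, and 1 passed without the 7 d replicate 1. Of 12 ganglion cell genes 1 passed (2 without the 7 d replicate 2), near the 8.54% of all genes that changed. It was Gap43, a growth cone protein that injured axons turn on, which fell by 1.08 ± 0.10 (SE, adjusted p = 2.2e-07, without the block 0.2). Its arrays read 7.45, 8.39 and 8.29 at 24 h and 6.31, 7.23 and 7.36 at 7 d, so each replicate fell by a similar amount.

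**Figure D3:**
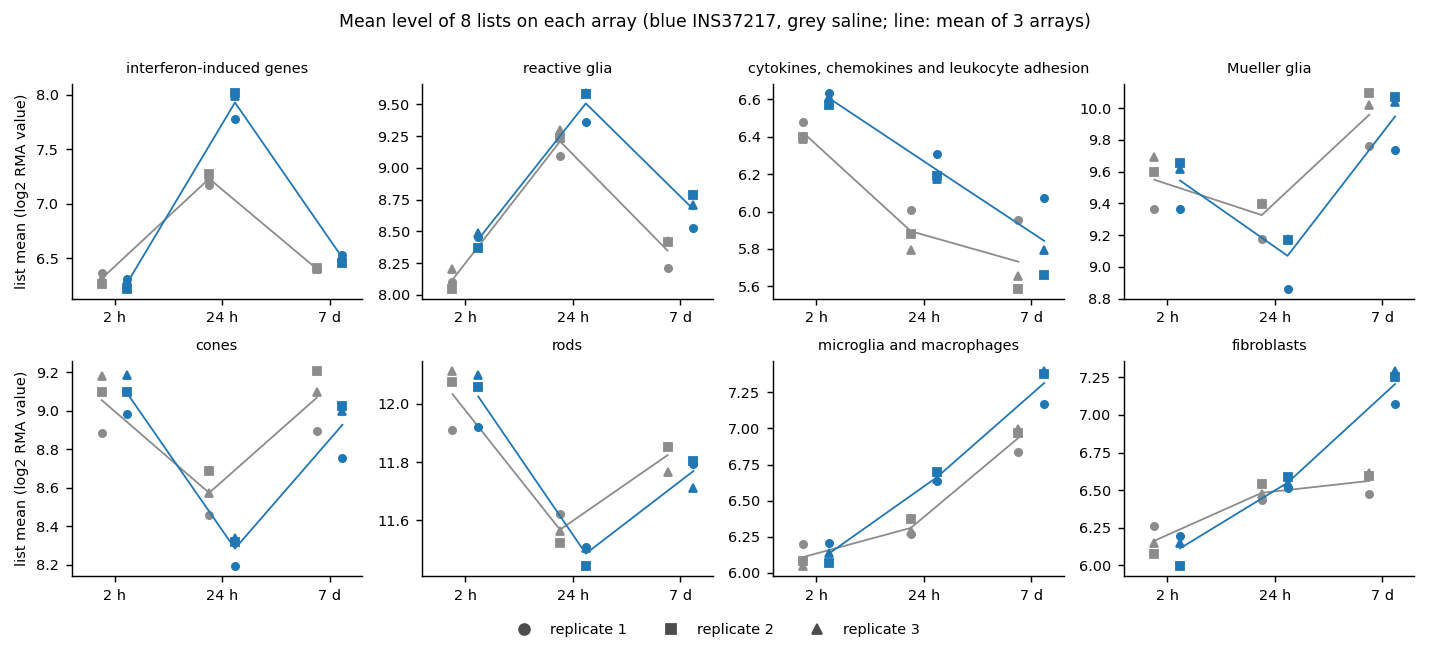
Mean level of 8 gene lists on each array, in log2 RMA values, at 2 h, 24 h and 7 d. Blue marks INS37217 and grey saline, the symbol shape gives the replicate, and each line joins the means of 3 arrays. With INS37217, interferon-induced and reactive glia genes peak at 24 h, Mueller glia, cone and rod genes have their lowest mean there, and microglia and fibroblast genes are highest at 7 d.

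Many microglia and macrophage genes rose. Of 21 measured genes 11 rose and 1 fell, with a median of 0.45. Without the block 8 rose and none fell. Lyz2, the lysozyme of myeloid cells, read 8.19, 8.30 and 8.39 at 24 h and 10.85, 11.04 and 11.11 at 7 d, a rise of 2.71 ± 0.13 (SE, adjusted p = 9.1e-12), or 6.53-fold. Lyz1 rose by 2.59, but the paralogs are nearly identical and may share signal. Csf1r, the receptor for the main survival factor of these cells, rose by 1.53, from 8.22, 8.41 and 8.31 to 9.48, 10.01 and 10.05. The lysosomal protease Ctss rose by 1.93.

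Genes typical of resident microglia were among those that rose. The fractalkine receptor Cx3cr1 rose by 0.95, Trem2, a lipid sensor, by 0.84, and its adaptor Tyrobp by 1.05. Cx3cr1 read 6.12, 5.58 and 5.92 at 24 h and 6.96, 6.61 and 6.89 at 7 d. The integrin Itgam and the pan-leukocyte gene Ptprc differed by -0.03 and 0.10, and neither passed. The gene that fell was the scavenger receptor Msr1, by 0.52 (adjusted p without the block 0.66). The list mean in the INS37217 groups was 6.13 at 2 h, 6.66 at 24 h and 7.32 at 7 d.

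Genes of wound-healing macrophages were mixed: 5 of 13 rose and 2 fell, against 4.08% and 4.45% of all genes. The median was 0.11. Without the block 1 rose, against 1.08% of all genes, while 4 changed without the 24 h replicate 1. The gene that passed without the block was F13a1, a transglutaminase of clotting and matrix, which rose by 0.68. Arg1, the arginase of this state, read 5.74, 7.42 and 6.83 at 24 h and 6.15, 8.15 and 8.32 at 7 d, a difference of 0.88 ± 0.30 (SE, adjusted p = 0.081) with overlapping groups. Replicate 1 was lowest in both groups, and with replicates 2 and 3 only the difference passed (adjusted p = 0.00043).

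The neutrophil list carried large falls of S100a9 and S100a8 but few others. Of 13 measured genes 5 fell and none rose, with a median of -0.24. Without the block 2 passed, as did 2 without the 7 d replicate 3 and 3 without the 24 h replicate 3. S100a9, a subunit of the secreted calcium-binding pair calprotectin, read 8.25, 9.29 and 9.33 at 24 h and 5.50, 5.21 and 5.08 at 7 d. It fell by 3.69 ± 0.22 (SE, adjusted p = 1.5e-10), to a level near the guide to background given above. Its partner S100a8 fell by 3.20, to values below that guide. The granule genes Ngp, Camp, Mpo and Elane, which neutrophils transcribe mainly while they mature, differed by -0.03, 0.13, 0.11 and 0.06, and none passed. None of 14 lymphocyte genes passed by limma, with or without the block, and 0 had an unadjusted p under 0.05.

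Most matrix and wound repair genes rose. Of 25 measured genes 18 rose and 3 fell, with a median of 0.48. Without the block 8 rose and 2 fell. Col1a2, a chain of type I collagen, read 7.07, 6.83 and 6.60 at 24 h and 8.25, 8.61 and 8.89 at 7 d, a rise of 1.75 ± 0.15 (SE, adjusted p = 5.9e-08). The proteoglycan Bgn rose by 1.30, the matricellular proteins Postn and Thbs1 by 1.24 and 1.19, and the collagen cross-linker Lox by 1.06. Those that fell were the metalloproteinase Mmp3 at -2.40, the inhibitor Timp1 at -1.11 and Tgfbi at -1.26 (adjusted p without the block 0.11). Mmp3 read 6.49, 7.29 and 7.08 at 24 h and 4.70, 4.37 and 4.60 at 7 d, where it lay below the guide to background given above.

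Part of the markers of fibroblasts, pigment epithelium and lens, which lie outside the neural retina, rose as well. None rose of 15 extraocular muscle, 6 erythrocyte and 8 surface epithelium genes, and 3 of 19 endothelium and pericyte genes did. Over all genes 4.08% rose, a share at which lists this small may hold none. Of 13 fibroblast genes 9 rose and none fell, with a median of 0.63 (4 without the block). Fbln2, an elastic fibre protein, rose by 1.89, from 6.72, 5.86 and 5.81 to 8.10, 8.01 and 7.95, and the proteoglycan Lum by 1.00. The mean of the fibroblast list was 6.51 to 6.59 on the 24 h arrays and 7.07 to 7.29 on the 7 d arrays. Of 14 genes of pigment epithelium and pigment cells 9 rose and none fell, with a median of 0.56 (4 without the block). Their mean was 7.68 to 7.96 at 24 h and 8.14 to 8.59 at 7 d. Rpe65, the isomerase of the visual cycle, rose by 1.16, from 7.45, 7.50 and 7.60 to 8.45, 8.78 and 8.81, and the melanin enzymes Tyrp1 and Dct by 0.97 and 0.94. Of 16 lens genes 6 rose and none fell, with a median of 0.19 (4 without the block), led by the crystallin Cryga at 0.83 and the lens fibre channel Mip at 0.74. The part of such tissue in the rise of matrix genes was not tested.

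Of 38 measured cell cycle genes 3 fell and 2 rose, against 4.45% and 4.08% of all genes, and the median was -0.09. Without the block 1 of each passed, and 2 or 3 in all passed without replicate 2 or replicate 3 of either group. Rrm2, a subunit of ribonucleotide reductase, fell by 0.61, while Mki67 and Cdk1 differed by -0.02 and -0.09. Spc25, a kinetochore gene, showed the largest rise of any gene whose groups did not overlap. It read 6.92, 7.11 and 7.10 at 24 h and 9.53, 10.15 and 10.01 at 7 d, and rose by 2.85 ± 0.10 (SE, adjusted p = 1.6e-13), or 7.23-fold. Its mean at 2 h was 10.57, and its second probe set rose by 0.66. The E2F element TTTCCCGC, searched on both strands, was in the 250 bases before the start of 2 of 32 members with a promoter, against 1.73% of measured genes.

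Whether the change from 24 h to 7 d was the same after saline was asked with the difference of the 2 changes. Of the 1058 genes that changed with INS37217, 1015 had a change of the same sign with saline, and over all 12393 genes the changes correlated at 0.73, which describes genes and not replicates. The difference itself passed for 62 of 22626 probe sets and 36 of 12393 genes, 21 more positive with INS37217 (0.169%) and 15 more negative (0.121%). Without the block 9 probe sets and 6 genes passed. With 1 array left out the number of probe sets ranged from 27 to 68. It was 27 without the INS37217 7 d replicate 2 or the INS37217 24 h replicate 3, 32 and 33 without the INS37217 24 h replicate 2 and 7 d replicate 3, and 33 and 28 without the saline 7 d replicates 1 and 3. It was 40, 37 and 37 without the saline 24 h replicates 1, 2 and 3. The saline 7 d replicate 2 has a source name that gives 2 h, and without it 60 probe sets passed.

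A minority of interferon-induced genes fell further with INS37217 than with saline by this test. The difference passed for 7 of 30 list members, all more negative, and not for 23. Of the 7, Slfn4 and Oasl2 also passed without the block. Ifit2, Parp14 and Gbp3 also lost the call with several single arrays left out. They passed 7, 10 and 10 of 19 alternative runs. Slfn4 read 5.11, 5.08 and 5.03 with saline at 24 h and 4.23, 3.77 and 3.59 at 7 d, a change of -1.21 against -3.81 with INS37217. The difference was -2.60 ± 0.21 (SE, adjusted p = 7.7e-07, without the block 0.0008). With saline Slfn4 lay within the guide to background given above at 24 h and below it at 7 d. With INS37217 it lay below that guide at 7 d, so the size of the difference is given as measured. Oasl2 read 7.07, 6.77 and 6.64 and then 5.36, 5.57 and 5.30 with saline, which gave a difference of -1.22 ± 0.16 (SE, adjusted p = 0.0004, without the block 0.042). In both genes the INS37217 arrays lay above the saline arrays at 24 h, and at 7 d the ranges overlapped.

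For some collagen and matrix genes the change was more positive with INS37217. The difference passed for 6 of 25 matrix genes (3 without the block) and 4 of 13 fibroblast genes (2 without the block), and the lists share Col1a2, Col3a1 and Postn. It did not pass for 19 matrix genes, among them Col1a1, the other chain of type I collagen, which rose by 0.74 with INS37217 (adjusted p without the block 0.17) and differed by 0.22 with saline (adjusted p of the difference 0.64). Those that lost the call without the block were Col3a1 (adjusted p 0.087), Bgn, Ccn2 and Fbln2 (1 each). Ccn2 also lost it with several single arrays left out, and passed 9 of 20 alternative runs. Postn read 6.81, 7.10 and 6.90 with saline at 24 h and 6.63, 6.76 and 6.68 at 7 d, against 6.68, 6.90 and 6.78 and then 7.64, 8.34 and 8.09 with INS37217. The difference was 1.48 ± 0.15 (SE, adjusted p = 2.3e-05, without the block 0.011). Col1a2 with saline read 6.83, 6.82 and 6.97 and then 7.14, 7.06 and 6.90, for a difference of 1.59 ± 0.22 (SE, adjusted p = 0.00077, without the block 0.033). Fn1, the matrix protein fibronectin, rose by 0.63 with INS37217 and fell by 0.58 with saline, a difference of 1.21 (adjusted p = 7.5e-05, without the block 0.0091) that was 0.57 for the mean of its probe sets (adjusted p = 0.054). At 24 h the arrays of both injections overlapped in Postn and Col1a2, and at 7 d every INS37217 array lay above every saline array. The fibroblast list as a whole averaged 7.20 with INS37217 and 6.56 with saline at 7 d, and the part of such cells in the difference was not tested.

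**Figure D4:**
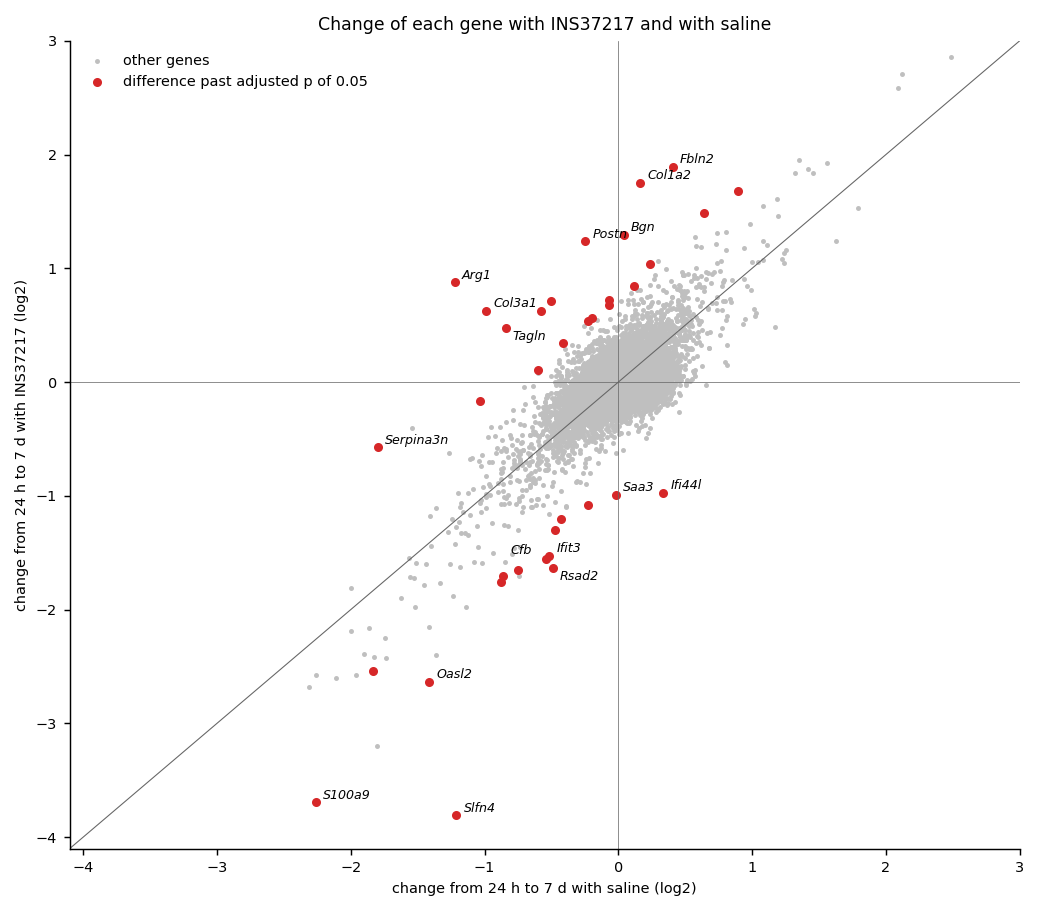
Change from 24 h to 7 d of each of 12393 genes with saline (horizontal axis) and with INS37217 (vertical axis), in log2. Red points are the 36 genes whose difference passed, 16 of them named, and the diagonal marks equal change. The named collagen genes lie above the diagonal, and Slfn4 and Oasl2 below it.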

How the data were processed

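The values used were the log2 RMA values of 22690 probe sets on 18 Affymetrix arrays that the authors deposited; RMA is named in the submitters' processing notes without a version or settings. The 64 Affymetrix control probe sets were left out and nothing was normalized again. The precision is limited by 3 arrays a group. Groups came from the titles.

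In R 4.3.3, limma 3.58.1 (lmFit and eBayes) was run on all 18 arrays with 6 group means and the replicate number as a block (residual degrees of freedom 10, prior 10.5), and p-values were adjusted by Benjamini and Hochberg over 22626 probe sets. Every p in the text is from limma. The pairing was checked on the values: after removal of group means, arrays with the same number in the 24 h and 7 d INS37217 groups correlated at 0.633 to 0.852 (3 pairs), and over all groups at 0.426 to 0.921 (45 pairs). The sources used here do not say what the numbers stand for. A p or SE measures the spread between pools that was left after the block took out what arrays of the same number shared. It is thus not the spread of the 3 values printed for a group. For Spc25 the SE was 0.10 with the block and 0.18 without it.

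Probe sets had 1 gene in 20380 cases, several in 691 and none in 1555 by the platform's annotation, and only the first are named. A gene is represented by the probe set with its highest mean level. Chosen for naming were up to 15 genes per direction of largest change with groups apart, per list up to 5 of the most changed members, up to 8 per direction of largest difference between injections, and Gfap, Lcn2, Fgf2, Ccl2, Opn1sw, Glul, Aqp4, P2ry2, Col1a1, Arg1 and Cryab, 156 in all. The text gives only some of these, and other list members as values beside their list. The comparison, the 36 lists (607 of 686 genes measured) and the choice of members were made with earlier results of these data known. The steps were tested on simulated data. Alternatives were no block, only the 6 arrays (12 for the difference between injections), only replicates 2 and 3, quantile normalization again, equal array medians, eBayes with trend and robust, only probe sets over the median level, the mean of a gene's probe sets, and each array left out.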

Additional observations from a re-analysis of the deposited data

Results flagged for a closer look

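These genes, and the count of probe sets, stood out because the change from 24 h to 7 d differed between INS37217 and saline by limma's test of the difference itself. The count was 62 probe sets (9 without the block, and 27 to 68 with 1 array left out).

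The change was more negative with INS37217 for 8 genes given here: Slfn4 by -2.60, S100a9 by -1.43, Ifi44l by -1.31, Oasl2 by -1.22, Rsad2 by -1.14, Cfb by -1.02, Ifit3 by -1.01 and Saa3, an acute phase protein, by -0.97. It was more positive for 8: Arg1 by 2.10, Col3a1 by 1.61, Col1a2 by 1.59, Postn by 1.48, Fbln2 by 1.48, Tagln by 1.32, Bgn by 1.26 and Serpina3n by 1.23.

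Of these 16 genes, Slfn4, Oasl2, Postn and Col1a2 passed under every alternative run. The saline values of Slfn4 lay within or below the guide to background given above. Ifi44l, Rsad2, Ifit3, Col3a1, Fbln2, Tagln, Bgn and Serpina3n lost the call only without the block, where their adjusted p was 0.14, 0.094, 1, 0.087, 1, 0.43, 1 and 0.094. The remaining 4 were less stable: S100a9 (adjusted p = 0.047) passed 7 of 19 alternatives, Cfb (0.044) 6, Saa3 (0.026) 10 and Arg1 (0.03) 8. Without the block their adjusted p was 0.93, 0.63, 0.46 and 1. With 1 array left out, S100a9 reached 0.22 without the INS37217 24 h replicate 2, and Cfb 0.21 without the INS37217 7 d replicate 2. Saa3 reached 0.13 without that same 7 d array, and Arg1 0.16. The call of all 4 was lost without the INS37217 7 d replicates 2 or 3, the saline 7 d replicate 3 or the saline 24 h replicate 1, each left out alone.

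Serpina3n was at 11.14, 11.13 and 11.01 with INS37217 and 11.02, 10.72 and 10.60 with saline at 24 h. At 7 d the INS37217 arrays read 10.55, 10.53 and 10.48 and the saline arrays 9.26, 8.79 and 8.89, so the ranges overlapped at 24 h and lay apart at 7 d.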

How the results depend on the processing

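The count of probe sets that changed with INS37217, 1733, was 501 without the block and 1166 to 1367 with 1 of the 6 arrays left out. Fewer features were tested with the mean of a gene's probe sets (1271 of 12393) and above the median level (1461 of 11312). Under the other alternatives, which kept all 22626 probe sets, the count was 1423 to 1897. The count for the difference between injections, 62, was 9 without the block, 31 among probe sets above the median level and 35 with the mean of a gene's probe sets, where fewer features were tested, and 27 to 68 with 1 array left out. Of 152 named genes called, 91 passed every alternative, 34 lost the call only without the block and 25 with some array left out; none reversed. All 30 genes of largest change with groups apart passed throughout. They were chosen by this from the same arrays, so their passing is no independent check. Of the 36 lists, 23 had a count of changed members more than 1.5 times smaller without the block, given beside each. The cause of these shifts was not tested.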

Other observations

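Ribosome biogenesis and cholesterol synthesis genes fell in part, against 4.45% of all genes that fell. Of 19 ribosome biogenesis genes 7 fell and none rose, with a median of -0.34, and 4 fell without the 7 d replicate 1, the 24 h replicate 2 or the 24 h replicate 3. Without the block 1 remained: Rrp1b, a nucleolar protein, fell by 0.70, from 9.62, 9.71 and 9.63 to 8.97, 8.97 and 8.91. Of 17 cholesterol synthesis genes 6 fell and none rose, with a median of -0.23, and none passed without the block and 3 without the 7 d replicate 1. Hmgcs1, the first committed enzyme of that pathway's mevalonate arm, fell by 0.56 (adjusted p without the block 0.069, and 0.070 without the 7 d replicate 1). Of 21 glycolysis and hypoxia genes 2 fell and 1 rose, and none passed without the block. The hexokinases Hk1 and Hk2 fell by 0.46 and 0.43 (adjusted p without the block 0.73 and 0.19).

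Cell death and NF-kB genes are set against the same 4.45%. Of 20 cell death genes 2 fell, with a median of -0.02, of which Tnfrsf1a, the tumour necrosis factor receptor, by 0.49 was the 1 that remained without the block; 1 also passed without the 24 h replicates 1 or 2 or the 7 d replicate 1. Of 13 NF-kB genes 2 fell, 1 without the 7 d replicate 3 and none without the block. Nfkbiz, an inducible regulator, fell by 0.73 (adjusted p without the block 0.16).

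Among cell types other than neurons and glia, 3 of 19 genes of endothelium and pericytes rose and 1 fell, with a median of 0.11. Over all genes 4.08% rose and 4.45% fell. Tagln rose by 0.48, Flt1 by 0.41 and Kdr by 0.38 (adjusted p without the block 0.53, 0.52 and 0.27). By the mean of its probe sets Flt1 differed by 0.16 (adjusted p = 0.32). In all 2 changed without the 24 h replicates 2 or 3, and 1 without the 7 d replicate 3. Cldn5, the tight junction gene of the blood-retina barrier, read 7.29, 7.24 and 7.22 at 24 h and 6.42, 6.68 and 6.78 at 7 d, and fell by 0.62 ± 0.12 (SE, adjusted p = 0.0013). It was the 1 gene of the list that passed without the block. With saline it differed by -0.02, and the difference between the injections, -0.61, did not pass (adjusted p = 0.24). Of 8 surface epithelium genes 2 fell, Aldh3a1 by 0.58 and Krt12 by 0.56, both abundant in cornea. None of 6 erythrocyte and none of 15 extraocular muscle genes passed by limma, with or without the block, and 0 and 0 had an unadjusted p under 0.05.

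A hormone gene outside the lists, chosen after its values were seen, was also highest at 24 h. Gcg, the glucagon precursor, averaged 4.37 at 2 h, 6.42 at 24 h and 4.61 at 7 d with INS37217, and fell by 1.81 ± 0.16 (SE, adjusted p = 6.1e-08). Its mean at 7 d lay below the guide to background given above. With saline Gcg fell by 2.00. A single probe set stands for it.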
